A study of Mus musculus with 48 samples.

Results

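The 10 genes described here mark the dopamine-responsive projection neurons of the striatum: Drd1, Pdyn and Tac1 of the direct pathway, Drd2, Adora2a, Penk and Gpr6 of the indirect pathway, and Ppp1r1b, Rgs9 and Pde10a of both. They were taken by symbol from the 56893 genes of the count table. All 10 were detected in all 48 libraries and were among the 17352 genes that passed the filter on low counts.

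Striatal projection neurons are GABAergic cells that receive glutamate from the cortex and thalamus and dopamine from the midbrain. Cells of the direct pathway carry the dopamine D1 receptor, which raises cAMP through the stimulatory G protein of the olfactory type, and make the peptides dynorphin and substance P. Cells of the indirect pathway carry the D2 receptor, which lowers cAMP, together with the adenosine receptor encoded by Adora2a, which raises it, and make enkephalin. Dopamine loss is known to raise Penk and lower Tac1 and Pdyn, so these genes are often read as a record of dopamine signalling in the striatum.

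Each library was poly-A RNA from 1 frozen brain hemisphere of an adult mouse aged 5.5 to 8.5 months. The conditional knockouts carried Grin1fl/fl, the floxed gene of the essential NMDA receptor subunit, together with 1 Aldh1a1+/P2A-CreERT2 allele, which places a tamoxifen-dependent Cre behind Aldh1a1, an enzyme gene of ventral midbrain dopamine neurons. The controls were Grin1fl/fl without Cre, except female control unrestricted replicate 2, which was Grin1fl/+. The labels used here name no inducing agent, and since the Cre allele was present only in knockouts, its insertion and the loss of Grin1 cannot be told apart. Mice of both sexes were moved from group to single housing and were then unrestricted, restricted (brains taken after 2 nights of food restriction) or refed (the same restriction, then 3 days of free access to grain pellets). The 2 genotypes, 2 sexes and 3 feeding states gave 12 groups of 4 mice. A hemisphere holds many regions besides the striatum, so fewer projection neurons and less RNA per neuron cannot be told apart here.

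The libraries held between 7574827 and 16185373 counts, with a median of 10515486. Aldh1a1 fell by 0.92 on the log2 scale in knockouts (SE 0.054, adjusted p = 1.42e-16, edgeR's quasi-likelihood test), from 190.3 ± 27.3 CPM (counts scaled to a common library size; SD, n = 24) in controls to 101.0 ± 16.7 in knockouts. Grin1 was at 351 ± 49.3 CPM in controls and 356 ± 29.4 in knockouts (SD, n = 24 each), a log2 change of 0.02 (SE 0.042, adjusted p = 1.00), which is measured over all cells of the hemisphere. A pair of libraries stood apart from the rest. In male control refed replicate 1 the skeletal muscle list of 6 genes summed to 4294 CPM, against a median of 11.5 over all libraries, and in female knockout unrestricted replicate 2 the non-coding Rn7s1 reached 656 CPM, against at most 71.3 in the other 47. The main results that rest on either are given with and without them.

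Per kilobase of the canonical transcript, Ppp1r1b, which encodes the protein phosphatase inhibitor DARPP-32, was the highest of the 10 at 138 ± 27.4 CPM per kilobase (SD, n = 48). The enkephalin precursor gene Penk followed at 53.8 ± 9.97, and Tac1, the substance P precursor, at 28.5 ± 5.31 CPM per kilobase. The cAMP and cGMP phosphodiesterase gene Pde10a stood at 21.5 ± 3.73, Rgs9, a brake on G protein signalling, at 20.0 ± 4.04, and Adora2a, the adenosine receptor of indirect pathway cells, at 15.6 ± 3.87 CPM per kilobase. The prodynorphin gene Pdyn was at 10.7 ± 1.81, Drd2 at 10.3 ± 2.44, Drd1 at 8.82 ± 1.91 and Gpr6, an orphan receptor of indirect pathway cells, at 4.99 ± 1.24 CPM per kilobase. Ppp1r1b exceeded Penk, Penk exceeded Tac1, and Drd1 exceeded Gpr6 in 48 of 48 libraries. Pdyn exceeded Drd2 in 29 of 48, with a mean log2 ratio of 0.09 ± 0.23 (SD). Pde10a exceeded Rgs9 in 36 of 48, with a mean log2 ratio of 0.11 ± 0.16 (SD). The order of these neighbours thus varied between libraries, and their mean differences were not tested. The mean level of the Adora2a transcript was above that of Drd2, with which it shares its cells. Drd2 was above Drd1 in 38 of 48 libraries, with a mean log2 ratio of 0.22 ± 0.22 (SD), also not tested.

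On the GRCm39 genome the members lie on 8 chromosomes. Adora2a (ENSMUSG00000020178.8) spans chr10:75152560-75170628, Penk (ENSMUSG00000045573.11) chr4:4132722-4141856, Ppp1r1b (ENSMUSG00000061718.14) chr11:98239169-98248624 and Tac1 (ENSMUSG00000061762.14) chr6:7554120-7565834, each a whole protein-coding gene of the GENCODE annotation. Dopamine receptors act on transcription through cAMP, whose response element binds CREB, so the 250 bases upstream of each RefSeq start site were searched on both strands for TGACGTCA (the full response element), TGACG (its first 5 letters), the motif TGCGTCA (the element known from the enkephalin gene, whose last 5 letters are the reverse complement of TGACG) and TGANTCA (the AP-1 site). A window was found for 7 of the 10 members (10 start sites in all); Adora2a, Penk and Ppp1r1b are named only. The windows of Tac1 and Gpr6 are shown because they were the only ones with a whole element, in capitals, on the GRCm38.p6 build at chr6:7554811-7555060 (plus strand) and chr10:41072291-41072540 (minus strand).
Tac1: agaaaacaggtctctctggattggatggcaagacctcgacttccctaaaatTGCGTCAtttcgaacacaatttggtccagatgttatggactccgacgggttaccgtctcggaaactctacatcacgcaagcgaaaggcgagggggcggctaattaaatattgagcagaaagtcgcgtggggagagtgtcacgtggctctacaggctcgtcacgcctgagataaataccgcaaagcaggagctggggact
Gpr6: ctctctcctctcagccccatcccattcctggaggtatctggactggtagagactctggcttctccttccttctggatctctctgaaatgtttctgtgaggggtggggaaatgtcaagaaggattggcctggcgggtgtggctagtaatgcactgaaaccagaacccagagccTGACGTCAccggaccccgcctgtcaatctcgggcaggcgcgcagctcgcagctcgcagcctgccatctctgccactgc
Among 32851 windows of the same length, 1.55% held TGACGTCA, 1.75% TGCGTCA, 17.8% TGACG and 6.75% TGANTCA. A match describes these letters only.

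The members varied from mouse to mouse more than most genes did. Within groups, the SD of log2 CPM ran from 0.259 for Pdyn to 0.438 for Gpr6, against a median of 0.138 over the 11013 genes at least as abundant as Gpr6. Without the libraries that stood apart it ran from 0.202 for Pdyn to 0.339 for Gpr6, against 0.136. All members but Tac1 varied together. Among the deviations of log2 CPM from the 12 group means over 48 libraries, all 36 pairs without Tac1 were correlated (Pearson's r between 0.76 and 0.939, Spearman's rho between 0.65 and 0.932), and these were the 36 of 45 pairs with an adjusted p under 0.05 by a permutation test within groups for either measure. The highest r over all libraries was that of Drd2 with Adora2a, 2 receptors of the same cells (r = 0.939, rho = 0.846, adjusted p = 1.55e-05 by permutation; the smallest unadjusted p that the permutations can give is 1e-05). The highest rho was that of Adora2a with Penk (rho = 0.932, r = 0.901), which also had the highest r without the libraries that stood apart (0.924). Drd1 with Drd2, which mark different neurons, had r = 0.867 and rho = 0.71 (adjusted p = 5.29e-05 by permutation). Leaving out the 2 libraries farthest from the median of the member named earlier in the list, r still ran from 0.591 to 0.911 over the 36 pairs.

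**Figure D1:**
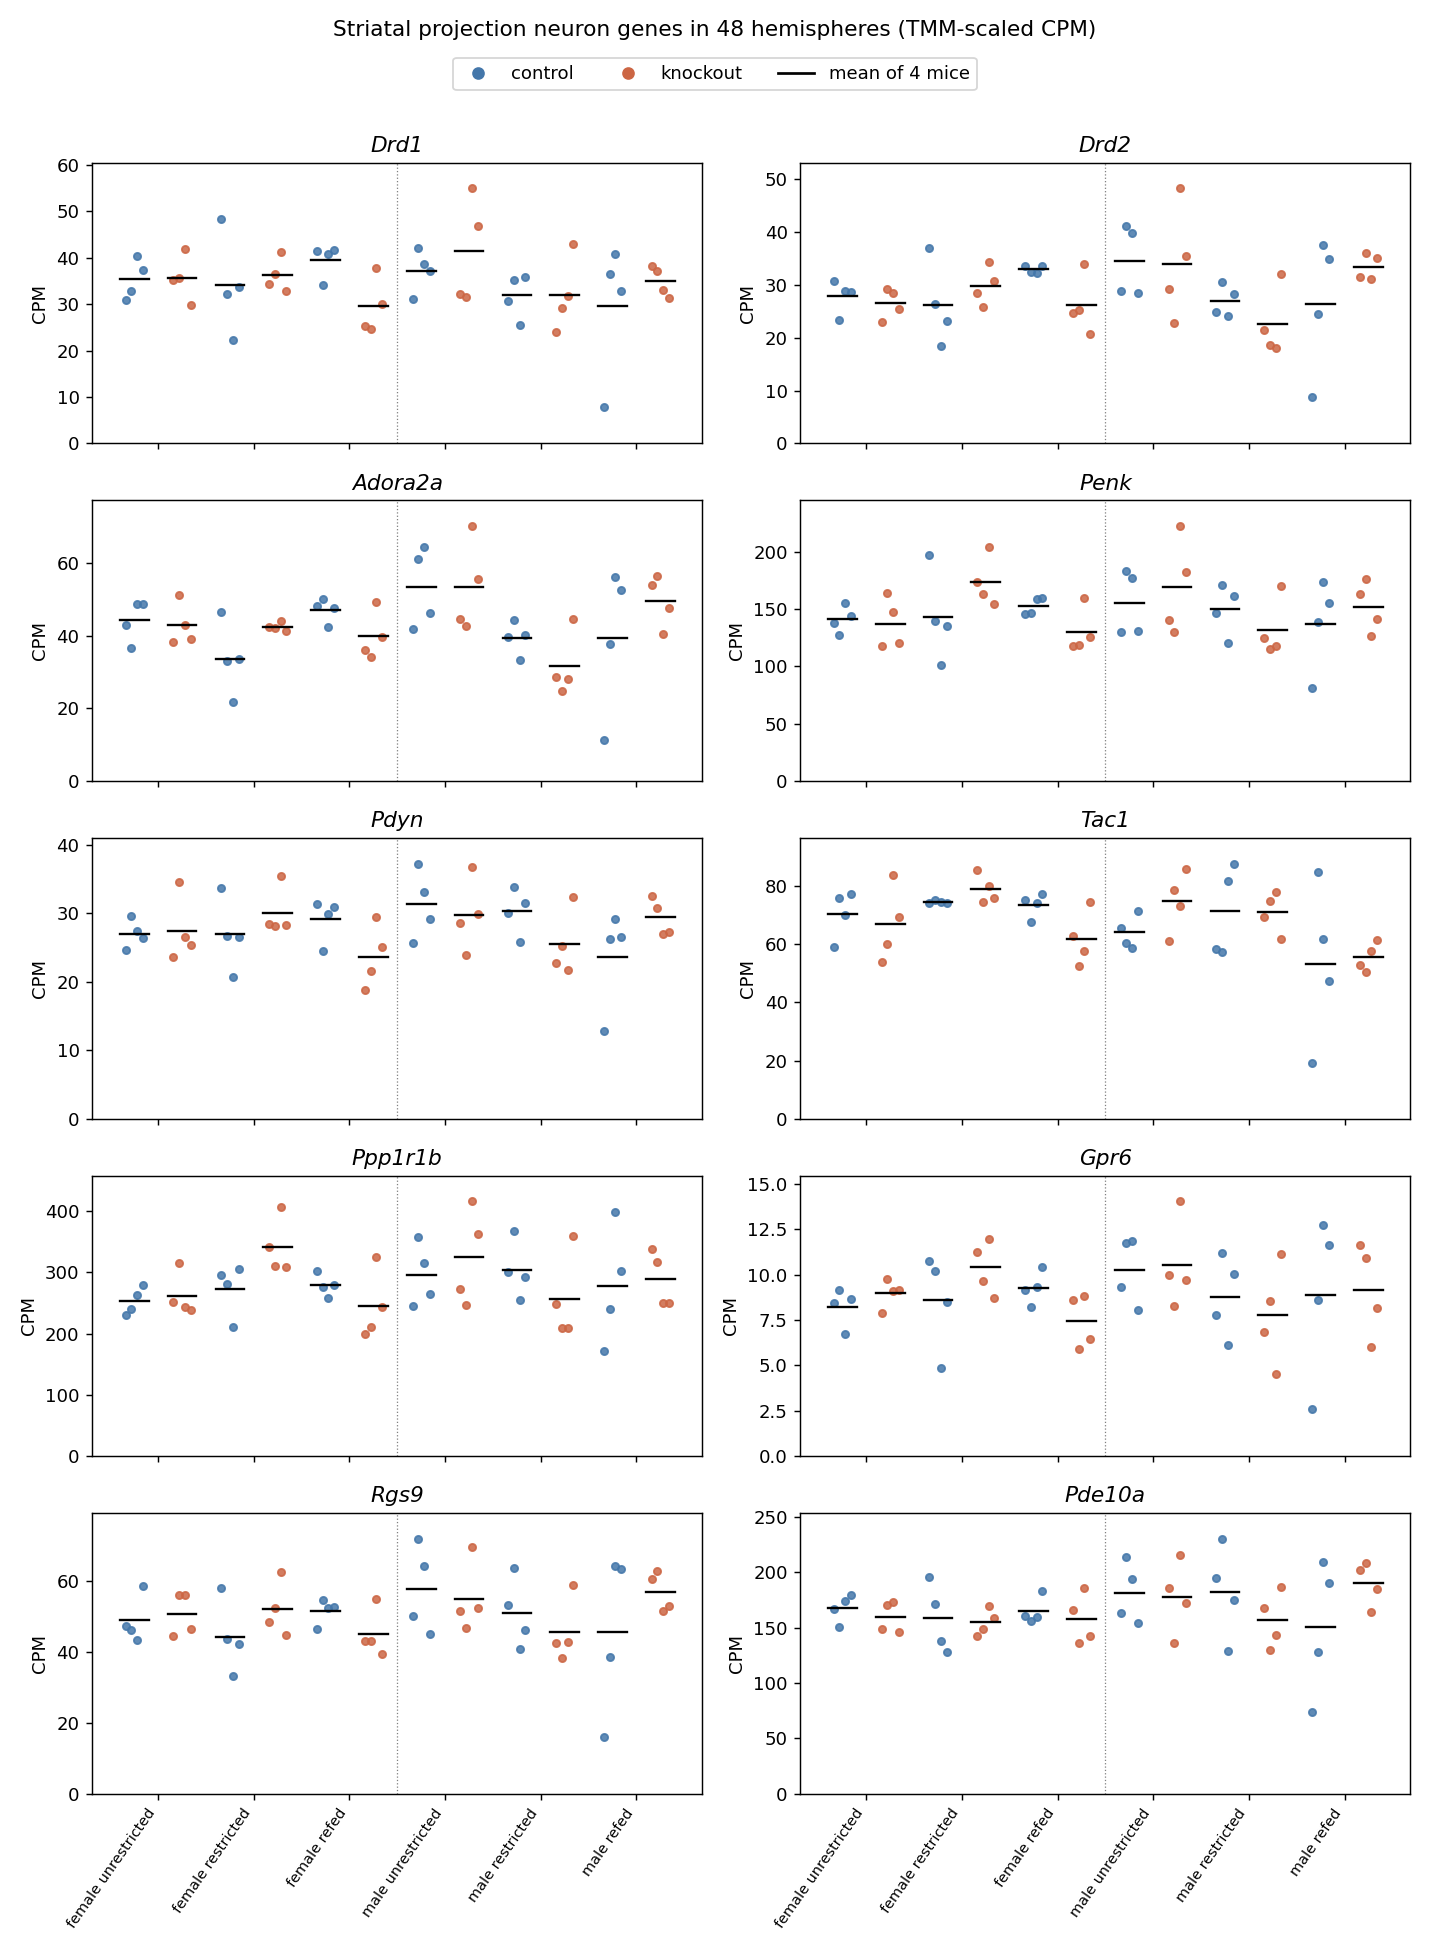
CPM (vertical axis, from 0) of each of the 10 genes in all 48 libraries, by sex and feeding state (horizontal axis), with controls in blue, knockouts in orange and a bar at the mean of 4 mice. The male control refed library near the bottom of each panel is the lowest of the 48 for every gene, and the ranges of controls and knockouts overlap for all 10 genes.

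Tac1 had lower values. Its 9 pairs had r between 0.17 and 0.628 but rho between -0.259 and 0.163, and none passed the test. Without both libraries that stood apart, the 9 values of r lay between -0.447 and 0.0665, while the 36 others stayed between 0.586 and 0.924. The library names carry numbers from 1 to 48, and all refed libraries are numbered 28 or lower. Among libraries numbered up to 28, which include male control refed replicate 1, the Tac1 pairs had r between 0.443 and 0.855, and from 29 between -0.518 and -0.133, so the sign differed between the ranges. The other 36 pairs lay between 0.771 and 0.969 in the lower range and between 0.622 and 0.958 in the higher one.

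**Figure D2:**
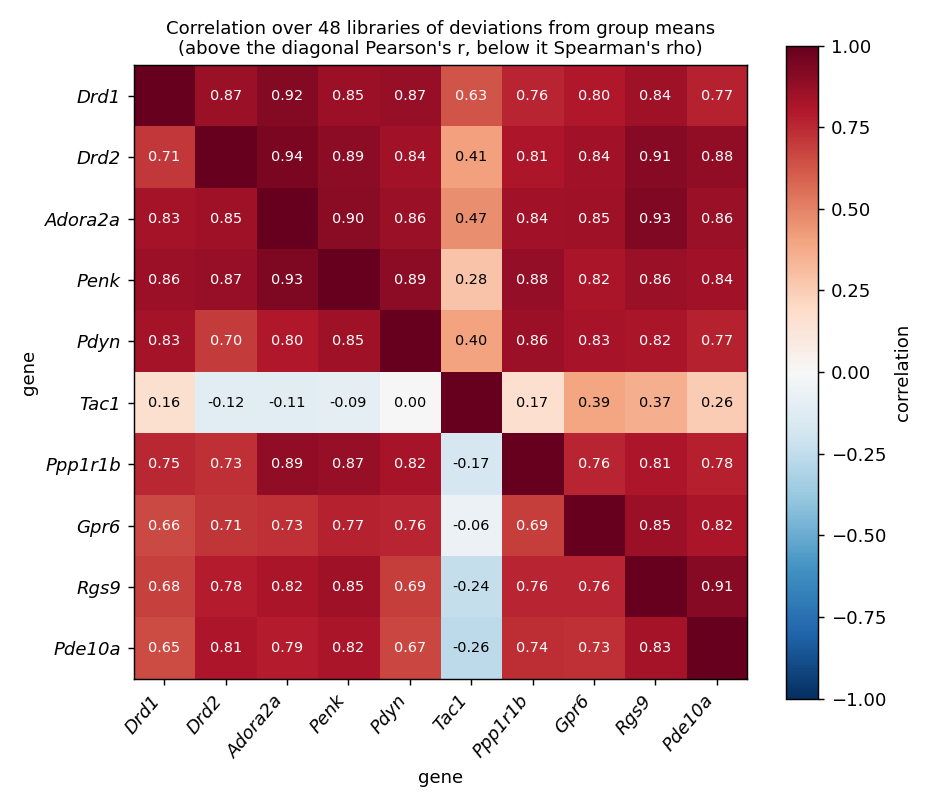
Correlations between the 10 genes over 48 libraries, as deviations of log2 CPM from group means, with Pearson's r above the diagonal and Spearman's rho below it (colour scale from -1 to 1). The 36 pairs without Tac1 are at 0.76 or more for r, and the Tac1 row and column are pale.

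Male control refed replicate 1 was the lowest of the 48 libraries for all 10 genes. It held 7.89 CPM of Drd1, against 32.9 to 40.8 in the 3 other mice of its group, or 21.5% of their mean. Adora2a stood at 23.2% and Drd2 at 26.9% of that mean, while Ppp1r1b kept 54.8% and Penk 52.2%. Aldh1a1 in the same library was at 118.5% of the mean of the others, its cerebellum list of 10 genes had the highest sum of all libraries (1938 CPM, median of all 1179) and its hypothalamus list the lowest (14.7 CPM, median of all 77.4). Their part in the low values was not tested. At the other end, male knockout unrestricted replicate 3 had the highest sum of the 10 members at 1222 CPM, against 405 in male control refed replicate 1 and a median of 857.

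Among the genes whose deviations were most like the mean deviation of the 10 were Cd4, with r = 0.959 over 48 libraries (0.909 without the libraries that stood apart), and the G protein subunit gene Gng7 (r = 0.946). Syndig1l, Rasd2, Pde1b, Lrrc10b and Ptpn5 followed, the last at r = 0.924. For single members, the most alike gene was Syndig1l for Penk, Six3 for Pdyn, Rasd2 for Ppp1r1b, Cd4 for Gpr6, Pde1b for Rgs9 and Rgs9 for Pde10a (r between 0.86 and 0.945). For Tac1 it was Pmch, the melanin-concentrating hormone precursor of the lateral hypothalamus, at r = 0.856, which fell to 0.626 without the libraries that stood apart, where Arl1 led at 0.879. Pmch stood at 2.08 CPM in male control refed replicate 1, against a mean of 41.8 ± 13.7 (SD, n = 48) over all libraries. Tac1 is also made outside the striatum, the hypothalamus included, and how much of its RNA came from there was not tested.

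Most other list genes of both projection neurons went with the members: 17 of 20 had r above 0.5 and the median was 0.825 (16 of 20 and 0.765 without the libraries that stood apart). Those listed for 1 pathway did so less, with a median r of 0.255 for 7 direct and 0.305 for 5 indirect pathway genes (0.0085 and 0.362 without those libraries), although Gpr52 (0.876) and Chrm4 (0.786) were high. Cerebellum genes had a median r of -0.497 for 10 and skeletal muscle genes of -0.616 for 6, but without the libraries that stood apart these became -0.223 and 0.0040. These values are descriptions, since all genes of a library share its depth and its dissection.

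No member was called in knockouts. In the mean over all combinations, the 10 log2 changes lay between -0.03 and 0.03 with SE between 0.069 and 0.11, and 0 of 10 passed an adjusted p of 0.05 in edgeR's quasi-likelihood test, where 0.00576% of genes did (Aldh1a1 alone). Drd1 ran from 7.89 through a median of 35.6 to 48.3 CPM in 24 controls, and from 24.02 through 33.7 to 54.95 in 24 knockouts. Its log2 change was 0.01 (95% CI -0.18 to 0.21). Drd2 ran from 8.72 through 28.9 to 41.2 CPM in controls and from 18.1 through 28.8 to 48.3 in knockouts, a change of -0.03 (CI -0.22 to 0.17). The ranges of both receptors overlapped over most of their length. Among the peptide genes, Penk was at 147 ± 25.6 against 149 ± 29.6 CPM, Pdyn at 28.03 ± 4.90 against 27.6 ± 4.59 and Tac1 at 67.9 ± 14.3 against 68.3 ± 11.2 CPM in controls and knockouts (SD, n = 24 each). Adora2a ran from 11.3 through 43.5 to 64.3 CPM in controls and from 24.8 through 42.4 to 70.1 in knockouts, and Gpr6 from 2.58 through 9.16 to 12.8 and from 4.52 through 8.98 to 14.1. For Ppp1r1b the ranges were 172 through 280 to 400 and 199 through 262 to 417 CPM, so these genes overlapped as well. The 95% intervals over the 10 genes reached no lower than -0.22 and no higher than 0.22.

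**Figure D3:**
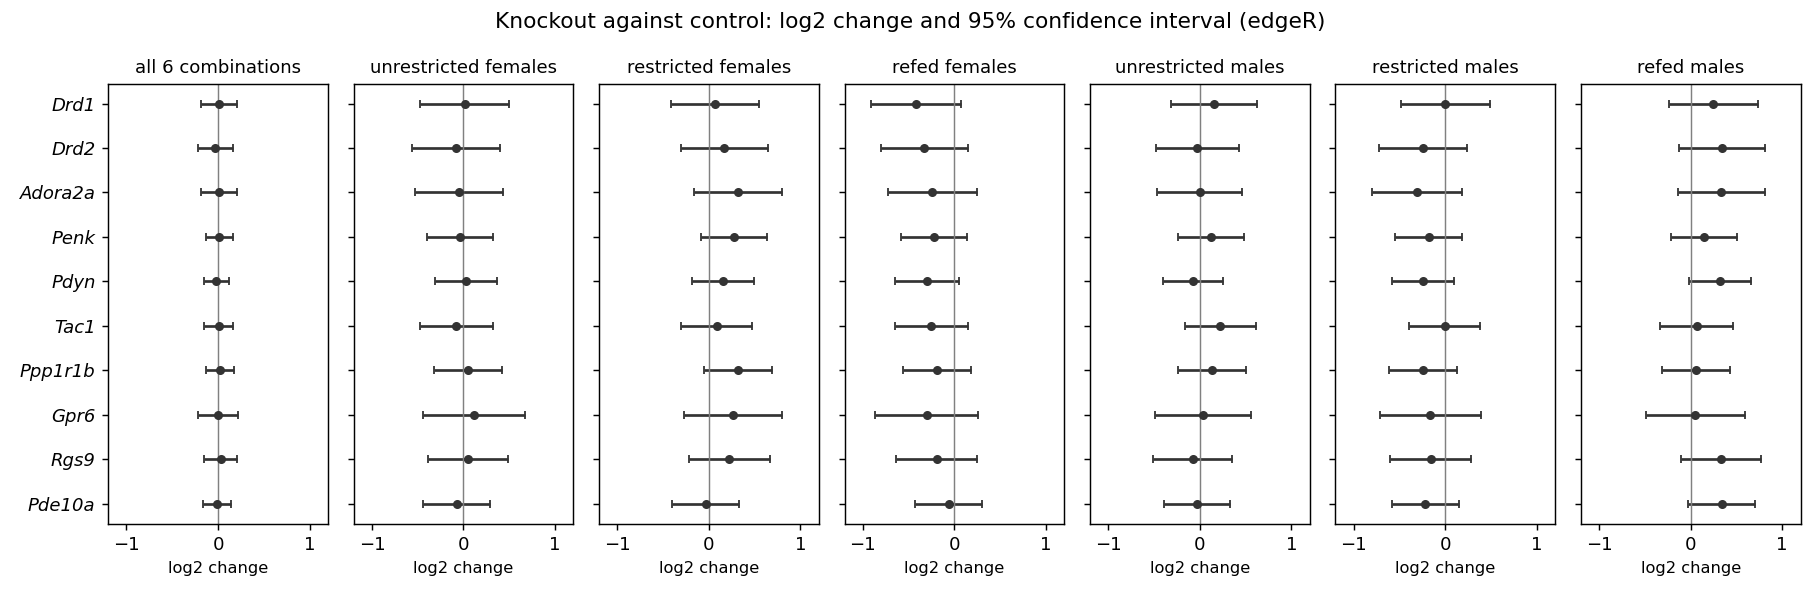
Log2 change of knockout against control (horizontal axis) for the 10 genes, over all 6 combinations of sex and feeding state and in each of them, with 95% confidence intervals from edgeR. Every interval includes 0. The signs are one-sided in restricted and refed mice and split 5 to 5 in unrestricted mice of either sex.

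The same held within sexes and feeding states. No member passed in females or in males (0.00576% of genes in each), in unrestricted females (0.0115%), restricted females (0.386%) or refed females (0.00576%), nor in unrestricted (0.00576%), restricted (0.00576%) or refed males (0.225%), and none had an unadjusted p under 0.05 in any of these tests. DESeq2 and limma called 0 members in them too. In unrestricted females and in unrestricted males 5 of 10 members were higher and 5 lower (median log2 changes -0.01 and 0.02). In the other combinations signs were more one-sided: 9 of 10 members were higher in knockouts among restricted females (median log2 change 0.20, all genes 0.00) and 10 of 10 were lower among refed females (median -0.24). The restricted female controls include replicate 3, whose 10 members summed to 646 CPM, against a median of 857 over all libraries. Its olfactory bulb list summed to 109.8 CPM, against a median of 33.6, and its part in these signs was not tested. In restricted males 9 of 10 were lower (median -0.20), and in refed males 10 of 10 were higher (median 0.28). Without the libraries that stood apart the refed male count became 5 of 10 higher, with a median of -0.02. Over all combinations, the 10 changes without those libraries were all below 0, with a median of -0.05, and none was called. The members are not independent of each other, as the correlations above show, so these counts carry no test. The interactions of genotype with sex, with feeding, and with both gave 0 members and 0% of all genes. The smallest p of a member among them was that of Pdyn for all 3 factors together (unadjusted p = 0.0134, adjusted p = 0.524, edgeR), and it was the only one under 0.05.

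Adora2a was lower in restricted mice. In CPM it ran from 36.4 through a median of 45.3 to 70.1 in 16 unrestricted mice, from 21.6 through 39.8 to 46.4 in 16 restricted mice, and from 11.3 through 47.6 to 56.4 in 16 refed mice. Restricted and unrestricted mice overlapped, but 7 unrestricted mice lay above every restricted one and 7 restricted mice below every unrestricted one. Adora2a fell by 0.39 on the log2 scale in restricted mice (SE 0.12, adjusted p = 0.0179, edgeR's quasi-likelihood test, both sexes and genotypes together) and was the only member called, 1 of 10 against 15.2% of all genes, so as a group the members were called no more often than other genes. The log2 differences of Drd2 (-0.21, adjusted p = 0.249), Drd1 (-0.15, adjusted p = 0.459) and Penk (-0.01, adjusted p = 0.970) did not pass. The median of the 10 was -0.08, beside 0.00 for all genes.

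The fall of Adora2a was called in males (-0.60, SE 0.17, adjusted p = 0.0178; 1 of 10 members, 8.28% of genes), where it went from 53.3 ± 10.99 CPM in 8 unrestricted to 35.4 ± 7.73 in 8 restricted mice (SD). That call was lost without male knockout unrestricted replicate 3, the mouse with the highest value, with an adjusted p of 0.0577. In females the change was -0.19 (SE 0.17, adjusted p = 0.596; 0 of 10 members, 6.27% of genes). The sexes were not shown to differ, since no member passed the test of feeding by sex (0% of genes; Adora2a adjusted p = 0.867, the smallest unadjusted p of a member was 0.0924, for Drd2). Over both sexes the call was kept when each of 32 libraries was left out in turn, with log2 changes between -0.45 and -0.36.

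The library number divided this result. Among libraries numbered from 29, Adora2a ran from 36.4 through 48.7 to 70.1 CPM in 11 unrestricted mice and from 21.6 through 33.2 to 44.6 in 9 restricted mice, a log2 change of -0.59 (SE 0.12, adjusted p = 0.0018, edgeR). Among those up to 28 it ran from 38.2 through 42.8 to 51.3 in 5 unrestricted mice and from 28.6 through 42.3 to 46.4 in 7 restricted mice, a change of -0.08 (SE 0.21, adjusted p = 0.908). With the range as a covariate the change was -0.40 (adjusted p = 0.0207). Of 8 thalamus genes 3 were lower in restricted mice (15.2% of all genes were called), of 10 cortex genes 1 was higher and 1 lower, and of 8 hippocampus genes 1 was higher and 1 lower. The thalamus list summed to between 207 and 290 CPM in restricted mice, against 239 to 305 in unrestricted mice. The skeletal muscle list summed to between 10.2 and 282 CPM in restricted and between 8.63 and 21.5 in unrestricted mice. No gene of these lists was at 0 in any library, and their part in the result was not tested.

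In refed mice Adora2a stood 0.25 above restricted mice on the log2 scale, which did not pass the test (SE 0.12, adjusted p = 0.154). Without the libraries that stood apart, one of which is a refed mouse at 11.3 CPM, the 15 other refed mice ran from 34.1 through 47.6 to 56.4 CPM and the rise was called (0.33, SE 0.087, adjusted p = 0.00697). With all libraries kept and the range of library numbers as a covariate, the rise was 0.24 and not called (adjusted p = 0.289, edgeR). Among libraries up to 28, which hold every refed mouse, that of Adora2a was 0.10 (SE 0.16, adjusted p = 0.760). Refed against unrestricted mice, its change was -0.14 (SE 0.12, adjusted p = 0.623), and 0 of 10 members were called (0.738% of genes; 0 members with an unadjusted p under 0.05, and 0 by DESeq2 or limma).

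Tac1 was the 1 member of 10 called between refed and restricted mice (15.2% of genes). It ran from 57.2 through a median of 74.8 to 87.9 CPM in restricted mice and from 19.1 through 61.8 to 84.9 in refed mice, beside 54.0 through 69.7 to 86.1 in unrestricted mice. The groups overlapped over most of their ranges. Tac1 fell by 0.29 on the log2 scale from the restricted to the refed state (SE 0.098, adjusted p = 0.0400, edgeR), and by 0.21 without the libraries that stood apart (adjusted p = 0.0347). The call depended on single libraries: it was lost without any 1 of 21 of the 32, with adjusted p up to 0.0796. With the range of library numbers as a covariate the change was -0.16 (adjusted p = 0.384), and among libraries up to 28, which hold every refed mouse, -0.21 (adjusted p = 0.391). Among unrestricted mice, Tac1 stood in the lower range of numbers at 60.05 ± 4.15 CPM in 5 mice, against 73.2 ± 8.55 in 11 from 29 (SD). By sex, 0 of 10 members were called between refed and restricted females (6.10% of genes) or males (8.33%), and 0 of 10 between refed and unrestricted females (0.0403%) or males (0.167%). Tac1 had an unadjusted p under 0.05 in both male comparisons. DESeq2 called 0 members in these 4 tests, and limma's voom fit called Adora2a and Tac1 between refed and restricted males and Tac1 between refed and unrestricted males. The voom fit called more genes than edgeR there, 2240 and 1296 of 17352 in the same order.

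Because most members moved with the general striatal level of a library, feeding was also compared at equal striatal level. The striatal index of a library was the mean of the standardised log2 CPM of 8 other genes of these neurons, among them Pde1b, Adcy5, Ptpn5, Rasd2, Scn4b, Rarb and Syndig1l, none of which was called in any feeding comparison over both sexes. The index was 0.26 ± 0.77 in unrestricted, -0.27 ± 0.83 in restricted and 0.01 ± 1.1 in refed mice (SD, n = 16 each), and all 8 index genes had negative log2 differences on restriction that did not pass the test, such as -0.05 for Rasd2 and -0.21 for Syndig1l. A change given at equal index is therefore relative to these genes. Taking the index out narrowed the spread of Penk within groups from 0.273 to 0.092 on the log2 scale and that of Drd2 from 0.380 to 0.134, but left Tac1 at 0.312, from 0.318. Without the libraries that stood apart, Penk went from 0.239 to 0.092, Drd2 from 0.278 to 0.112 and Tac1 from 0.205 to 0.196.

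**Figure D4:**
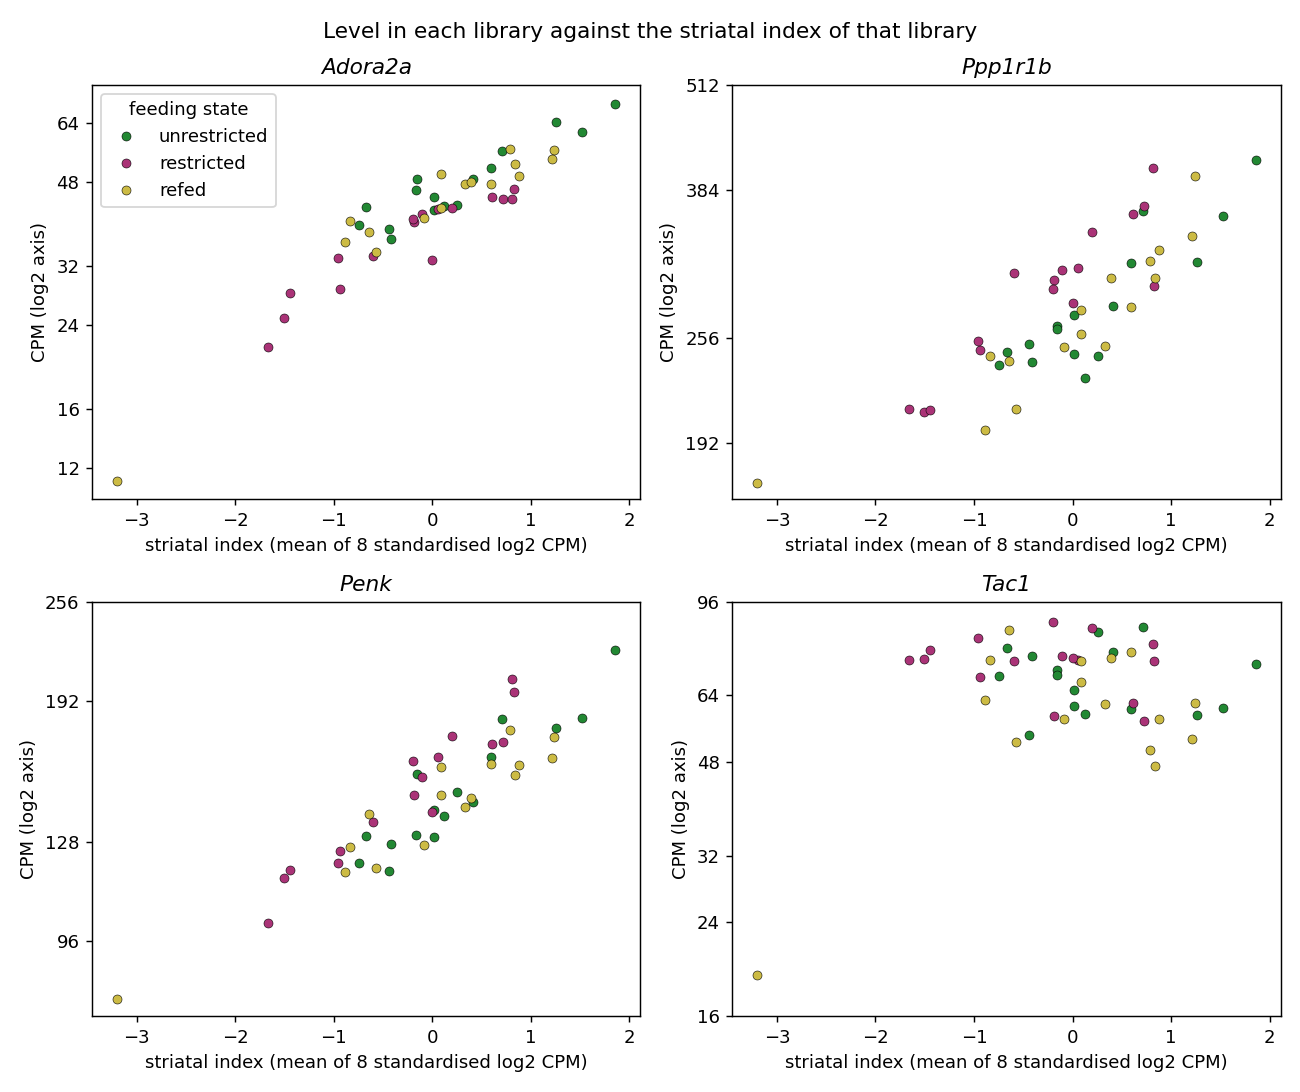
CPM (vertical log2 axis) of Adora2a, Ppp1r1b, Penk and Tac1 in each of 48 libraries against the striatal index of the library (horizontal axis, mean of 8 standardised log2 CPM), coloured by feeding state. Restricted libraries tend to lie low for Adora2a and high for Ppp1r1b and Penk at a given index, and Tac1 shows no clear relation to the index apart from the lowest library.

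Penk ran from 117.5 through a median of 141.9 to 222.5 CPM in unrestricted mice, from 101.3 through 150.5 to 204.6 in restricted and from 81.3 through 145.9 to 176.5 in refed mice. Ppp1r1b ran from 230 through 264 to 417, from 209 through 298 to 408, and from 172 through 268 to 400 CPM in the same order. Pdyn ran from 23.6 through 27.9 to 37.3, from 20.7 through 28.2 to 35.5, and from 12.8 through 27.1 to 32.6 CPM. As levels, all 3 overlapped over nearly their whole ranges, and without the index none was called on restriction (Penk -0.01, Ppp1r1b 0.05, Pdyn -0.03). In the same order, the changes were 0.30, 0.31 and 0.16 among libraries up to 28, and -0.21, -0.11 and -0.15 from 29. None of these was called either (smallest adjusted p = 0.229, edgeR). At equal striatal index, 3 members were called between restricted and unrestricted mice (17% of genes): Adora2a fell by 0.20 (SE 0.051, adjusted p = 0.00371, edgeR), Penk rose by 0.14 (SE 0.035, adjusted p = 0.00416) and Ppp1r1b rose by 0.20 (SE 0.042, adjusted p = 0.000675). Between refed and restricted mice 4 were called (16.1% of genes). Both comparisons share the restricted mice, so opposite signs in them are not independent. Penk fell by 0.14 (SE 0.034, adjusted p = 0.00227), Ppp1r1b fell by 0.19 (SE 0.041, adjusted p = 0.000736), Pdyn fell by 0.18 (SE 0.044, adjusted p = 0.00388) and Tac1 fell by 0.30 (SE 0.099, adjusted p = 0.0288). Adora2a was 0.12 higher (adjusted p = 0.0914). Between refed and unrestricted mice 0 members were called (1.29% of genes; 0 with an unadjusted p under 0.05), and Penk and Ppp1r1b were within 0.01 of their unrestricted level.

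**Figure D5:**
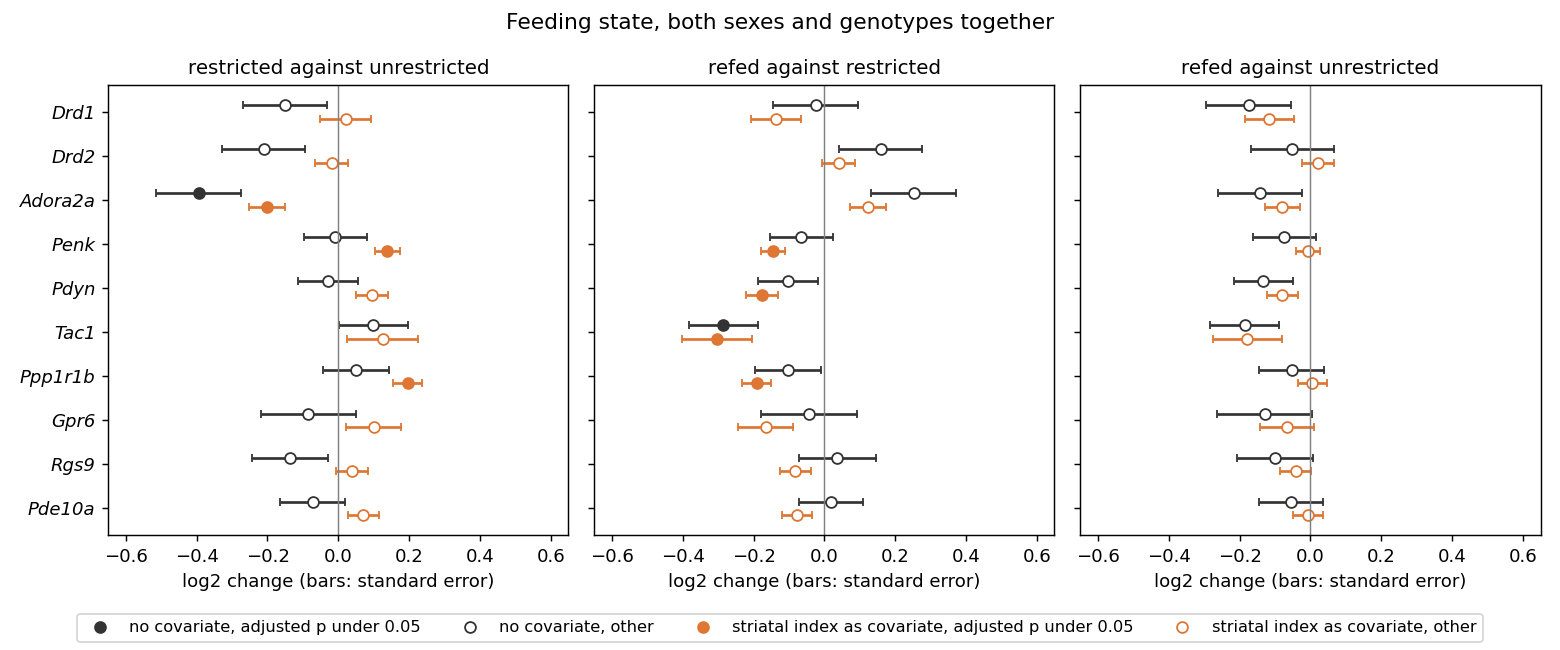
Log2 change with its standard error (horizontal axis) of the 10 genes in 3 comparisons of feeding state, without a covariate in black and with the striatal index as covariate in orange, filled where the adjusted p is under 0.05. Adora2a is to the left of 0 and Penk and Ppp1r1b to the right on restriction at equal index. The comparison of refed with restricted mice shares its restricted mice with that of restricted with unrestricted mice.

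These calls were tried in 2 further fits, chosen after the data were seen. Without the libraries that stood apart and at equal index, Adora2a fell by 0.23 on restriction (adjusted p = 4.47e-05) and rose by 0.18 after it (adjusted p = 0.00100), and Penk and Ppp1r1b were called in both comparisons with the signs above. With the range of library numbers as a further covariate, the 3 changes on restriction were -0.19, 0.14 and 0.20 and all were called, while the 0.16 by which Adora2a was higher in refed than in restricted mice was not (adjusted p = 0.0555). Pdyn was called after refeeding in both fits, and Tac1 in neither (adjusted p = 0.0959 and 0.305). By sex at equal index, the change of Adora2a in restricted males was -0.19 and not called (adjusted p = 0.0968, edgeR). In the 2 further fits this male change was -0.25 and called without the libraries that stood apart (adjusted p = 0.00284). With library number added it was -0.18 and not called (adjusted p = 0.134). In knockouts against controls at equal index, edgeR called 0 of 10 members (0.00576% of genes), and no unadjusted p of a member was under 0.05, with log2 changes between -0.02 and 0.06.

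The ratio of Adora2a to Penk within a library was also read mouse by mouse. This pair was chosen after its values were seen and is given as a description only. In CPM over CPM it was 0.321 ± 0.020 in unrestricted mice (0.286 to 0.362) and 0.245 ± 0.020 in restricted mice (0.213 to 0.276; SD, n = 16 each). The 2 groups did not overlap over all libraries, which by itself fixes the same within either range of library numbers. Up to 28, the ratio was 0.310 to 0.325 in 5 unrestricted and 0.216 to 0.270 in 7 restricted mice. Since the pair was chosen, its separation is no test, and the share of all gene pairs that separate these groups is not given here. The ratios of Adora2a to 4 other members did overlap between these groups. Over Ppp1r1b they ran from 0.152 to 0.204 in unrestricted and 0.103 to 0.157 in restricted mice, over Drd2 from 1.39 to 1.87 and 1.17 to 1.63, over Drd1 from 1.02 to 1.66 and 0.846 to 1.299, and over Rgs9 from 0.767 to 1.12 and 0.648 to 0.923. In refed mice it was 0.302 ± 0.049, from 0.139 in male control refed replicate 1 to 0.341, and 0.267 to 0.341 in the 15 without it. The ratio was 0.288 ± 0.053 in controls and 0.290 ± 0.039 in knockouts (SD, n = 24 each). The ratio of Drd2 to Drd1, across the pathways, overlapped between all feeding states, with medians of 0.793, 0.816 and 0.932 in unrestricted, restricted and refed mice.

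Other genes of these neurons and of their signalling were read over both sexes, beside the 15.2% of all genes called in each comparison that involves restricted mice. On restriction, 2 of 7 direct pathway genes fell, Slc35d3 by 0.35 (adjusted p = 0.0114) and Zfp521 by 0.20 (adjusted p = 0.0306), and both were higher in refed than in restricted mice (by 0.30 and 0.22, adjusted p = 0.0330 and 0.0179). None of 5 indirect pathway genes was called in either comparison. Of 20 genes of both projection neurons, the anoctamin gene Ano3 (-0.19) and the exchange factor gene Rasgrp2 (-0.16) fell on restriction, and none was called after refeeding. Of 34 tested genes of dopamine receptor and cAMP signalling, 6 were called on restriction, 2 higher and 4 lower (Drd3 and Drd4 were too low to test). Rgs4, which speeds the shut-off of G proteins, fell by 0.26, Prkar2b, a regulatory subunit of protein kinase A, by 0.17, and Cdk5, a kinase that phosphorylates DARPP-32, rose by 0.12 and fell by 0.13 after refeeding. Prkar2a, another regulatory subunit of protein kinase A, rose by 0.12 on restriction (adjusted p = 0.0262, edgeR). Gnal, the G protein through which D1 and adenosine receptors raise cAMP, fell by 0.17 (adjusted p = 0.0453).

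Of 16 listed genes that neuronal activity and dopamine receptors induce, 4 fell in refed against restricted mice: Dusp1 by 0.50, Nr4a1 by 0.54, Fos by 0.56 and Fosl2 by 0.24 (adjusted p between 0.000275 and 0.0373). Against unrestricted mice, where 0.738% of all genes were called, 3 fell, Egr2 by 1.17, Nr4a1 by 0.66 and Fos by 0.75 (adjusted p between 0.00157 and 0.0359), and the median of the 16 was -0.26, beside 0.00 for all genes. Egr2 was the only one called on restriction (-0.61). All 16 refed mice but only 5 unrestricted mice have libraries numbered up to 28. With the striatal index as covariate, 1.29% of all genes were called between refed and unrestricted mice, and 0.127% with library number added. How far library number enters the changes of the activity genes was not tested. These genes are induced in many regions, so the hemisphere does not say where they moved. In knockouts, no gene of the direct, indirect, shared, signalling or activity lists was called over all combinations.

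Between the sexes no member was called (0.357% of genes; 0 members with an unadjusted p under 0.05 and 0 by DESeq2 or limma). Over the 10 members, 8 were higher in males (median log2 change 0.06). Without the libraries that stood apart, 9 were higher (median 0.12), and 0 were called (0.576% of genes). With all libraries kept, Tac1 was at 71.1 ± 8.94 CPM in 24 females and 65.1 ± 15.1 in 24 males (SD). Its log2 change was -0.14 (SE 0.080, adjusted p = 0.363, edgeR), the largest in size of the 10. The males include male control refed replicate 1, at 19.1 CPM of Tac1. Pde10a was at 160.5 ± 17.4 in females and 173 ± 36.4 in males (log2 change 0.11, adjusted p = 0.467).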

How the data were processed

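The values analysed were the estimated counts per gene that the authors made with fastp, STAR and Salmon on mm39, per the submitters' processing notes, and deposited for 48 libraries, 1 per mouse; versions and the annotation are not given in the sources used here. Of the nonzero values 66.1% were whole, and all were rounded to whole counts before testing, which moved a library total by at most 51.1.

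Genes were kept with filterByExpr (minimum count 10, total 15), leaving 17352 genes with 99.9% of all counts. TMM factors ran from 0.913 to 1.03. One model with the 12 groups was fitted with edgeR 4.0.16 (R 4.3.3, quasi-likelihood test), with Benjamini-Hochberg adjustment over all tested genes and a threshold of 0.05. CPM used TMM-scaled totals, and log2 CPM a prior count of 2. DESeq2 1.42.0 and limma 3.58.1 (voom with sample weights) were alternatives. Each library is 1 mouse, so the tests between groups set a difference against the spread between mice.

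Correlations were computed on deviations from group means with Python 3.11.15, numpy 2.4.6, pandas 2.3.3 and scipy 1.17.1, with 100000 permutations within groups. Scripts were tested on simulated data. Promoter windows came from RefSeq, gene positions from GENCODE.

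The members and all gene lists were chosen with earlier results of these data known. Named are all 10 members, in each list at most 4 called genes with the smallest p, the genes most like the members (the rule takes 8, and 1 per member), and Grin1 and Aldh1a1 as a check of the labels. Rn7s1, Gnal, Gpr52, Chrm4 and the Adora2a to Penk ratio were chosen after their values were seen. Results for 1 gene that the rule names are not reported here. Alternatives covered normalisation, filter, threshold, age, library number, the striatal index, the libraries fitted and single libraries left out. The index combined with leaving out the libraries that stood apart, and with library number, were chosen after seeing the data.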

Additional observations from a re-analysis of the deposited data

Results flagged for a closer look

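Of 120 sets of 4 mice (10 genes in 12 groups), 2 held a mouse far from the other 3 by Dixon's test at the 95% level. Chance alone flags about 1 in 20 such sets. Drd1 stood at 34.14 CPM in female control refed replicate 2, below the 40.82 to 41.62 CPM of the other 3 mice. Pdyn stood at 35.5 CPM in female knockout restricted replicate 3, above the 28.08 to 28.39 CPM of the others. In both sets the other mice lay unusually close together.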

How the results depend on the processing

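Of 877 counts under alternatives, 815 stayed within 1.5 times the original and 62 did not. The 877 are counts of called members and a few of correlated pairs, and most of the 877 come from leaving out 1 library. None of the 560 for genotype, sex or their interactions with feeding moved, and no sign of a called member reversed. For restricted against unrestricted mice (1 called), the count was 3 with the striatal index, 3 with the index and without the libraries that stood apart, 3 with the index and library number, 0 up to library 28 and 2 from 29 (Adora2a and Rgs9). In females (0 called) the count of members was 2, 3 and 2 with the same 3 index fits, and in males (1 called) 2 at a threshold of 0.1, 2 with no filter, 2 by voom, 2 without the libraries that stood apart and 2 with the index and without them. Genes called were 7.29%, 8.22% and 7.37% in females, beside 6.27% originally. In males they numbered 2092, 1076 (of 36800), 1789, 1589 and 2693, beside 1436 originally. For refed against restricted mice (1 called), the count of members was 0 with age, 0 with library number, 0 in a fit to only the groups compared, 0 up to library 28, 2 by voom, 2 without the libraries that stood apart, and 4, 4 and 3 with the 3 index fits. In the same order the fits called 2382, 2048, 2304, 1914, 3650, 2578, 2790, 2696 and 2407 genes, beside 2632 originally. Between 17087 and 18160 genes were tested. In females (0 called) the count of members was 1 when fitted to refed and restricted females alone, and 2, 3 and 2 with the index fits. Genes called there were 1240 of 16497, then 7.08%, 8.20% and 7.79%, beside 6.10% originally. In males (0 called) the count of members was 1 at a threshold of 0.1, 1 with no filter, 2 with the index, 2 by voom, 1 without the libraries that stood apart and 1 with the index and library number. Genes called were 2146, 1172 (of 36800), 1480, 2240, 1167 and 1232, beside 1446 originally. For refed against unrestricted males (0 called) voom gave 1, where it called 1296 of 17352 genes, beside 29 originally. The causes were not tested.

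With single libraries left out, the count ran from 0 to 2 for refed against restricted mice, 0 to 1 in males (1 without male control refed replicate 1 or 2 or male control restricted replicate 2), 0 to 2 for restricted against unrestricted males (moved without male knockout unrestricted replicates 2 or 3 or male knockout restricted replicate 4) and 0 to 1 for refed against unrestricted males (1 without male control refed replicate 2). The other counts did not move. The change of Adora2a on restriction ran from -0.59 to -0.08 over 15 alternatives, with adjusted p from 4.47e-05 to 0.908, and that of Tac1 between refed and restricted mice from -0.30 to -0.16 over 14, with adjusted p from 0.00674 to 0.391. No paired analysis was possible because the replicate numbers only name mice in accession order and tie no mouse to a mouse of another group.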
